A study of Mus musculus with 6 samples.

Results

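The proteasome genes were 44 of the 16139 genes that have probe sets of their own on these exon-level arrays. They were taken as every gene whose single symbol in the platform annotation starts with Psma, Psmb, Psmc, Psmd, Psme, Psmf or Psmg followed by a number, leaving out Psmb8 and Psmb9, which are described only for comparison. RNA came from snap-frozen livers of male mice, 6 to 8 weeks old, with 3 arrays from control mice labelled wild type and 3 from mice labelled Dhx32-/- mutant, homozygous for a mutation of the RNA helicase gene Dhx32. The comparison asks how a Dhx32 mutation bears on liver transcripts, gene by gene and exon by exon. The strain background, the nature of the mutation and whether each array is a separate mouse are not given in the sources used here. The p-values therefore measure the spread between these samples, whatever its source.

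The proteasome is the protease complex that degrades proteins tagged with ubiquitin in the cytosol and nucleus. Its 20S core is a stack of outer alpha rings, which gate the entry, and inner beta rings, of which Psmb5, Psmb6 and Psmb7 carry the proteolytic sites. A 19S cap of ATPase (Psmc) and non-ATPase (Psmd) subunits binds ubiquitin chains, unfolds the substrate and threads it into the core. In liver the complex clears regulatory enzymes and also proteins returned from the endoplasmic reticulum, and its genes are known to be induced together by the transcription factor NRF1 (Nfe2l1) when proteasome activity falls short.

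Of the 44 genes, 43 had at least 2 probe sets with a mean log2 signal of 3 or more in a group, the minimum used here. They were compared as the mean over those probe sets. The remaining one, Psmb11, the thymus-specific beta subunit, had 1 probe set, which read 4.51 to 4.91 in controls and 4.24 to 5.26 in mutants. Psmc3ip, a recombination factor whose product binds an ATPase subunit, is taken in by the symbol rule but is no proteasome subunit. It read 5.84, 6.13 and 5.99 in controls and 5.87, 5.90 and 6.00 in mutants, a difference of -0.065 (SE 0.15) with overlapping groups. The members held 462 probe sets, and 457 of them passed the minimum. No single-symbol probe set of Psma8, Psmd1 or Psmg4 was analysed here.

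Array medians ran from 6.73 to 6.95 on the log2 scale. Dhx32 itself was lower in the mutants, at 6.35, 6.60 and 7.04 against 8.28 to 8.85 in the controls, a difference of -1.92 (SE 0.23; limma adjusted p = 0.183 for the gene and 2.01e-14 for exon usage). Mutant replicate 1 stood apart, with correlations of 0.935 to 0.940 with the other arrays, where pairs among the others reached 0.973. Hepatocyte markers were bright on all arrays. Their mean over 9 genes was 12.94 to 13.02 in controls and 12.87 to 13.1 in mutants. The acute phase list of 11 genes was higher in every mutant, at 2.17, 0.98 and 0.58 from the control mean against -0.15 to 0.12 in controls, and highest in mutant replicate 1. That array also had the highest mean of the neutrophil list, 0.70 above the control mean over 7 genes, where the other mutants stood at 0.036 and -0.084. In bulk liver, fewer cells of a type and less RNA per cell cannot be told apart.

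None of the 43 proteasome genes passed the test between mutant and control livers, and most differences were a small fraction of a log2 unit. In limma, with Benjamini-Hochberg adjustment over all 15045 genes tested, 0 of 43 members passed the threshold of 0.05 (background 0.00665%), and the smallest adjusted p among them was 0.943. At an unadjusted p under 0.05 the count was also 0 of 43, where 4.21% of all genes reached it. The mean was higher in mutants for 23 members (53.5%) and lower for 20, against 47.5% higher among all genes. The median difference, mutant minus control, was 0.042 log2 units over the members and -0.014 over all genes.

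The differences ran from -0.34 for Psma4 to 0.39 for Psmb5, which is 1.26-fold lower and 1.31-fold higher. No member differed by more than 0.5 log2 units in either direction, where 5.87% of all genes did. The 95% intervals of the differences, from limma and not adjusted for the number of genes, lay within 1 log2 unit of zero for 42 of the 43 members. The exception was Psmb5, whose interval reached from -0.29 to 1.08. For 16 members the interval lay within 0.5 log2 units. Leaving out 1 array in turn moved the difference by over 1.5 times, or turned its sign, in all 25 proteasome genes recomputed that way (Psmb8 and Psmb9 included). The narrowest interval was that of the lid subunit Psmd7 (-0.33 to 0.31). A change of 1 log2 unit thus lay outside the interval of every measured member but Psmb5. For the other members beyond those 16, a change of 0.5 lay inside the interval in at least 1 direction. A change of that size and direction was not excluded there with 3 arrays per group.

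**Figure D1:**
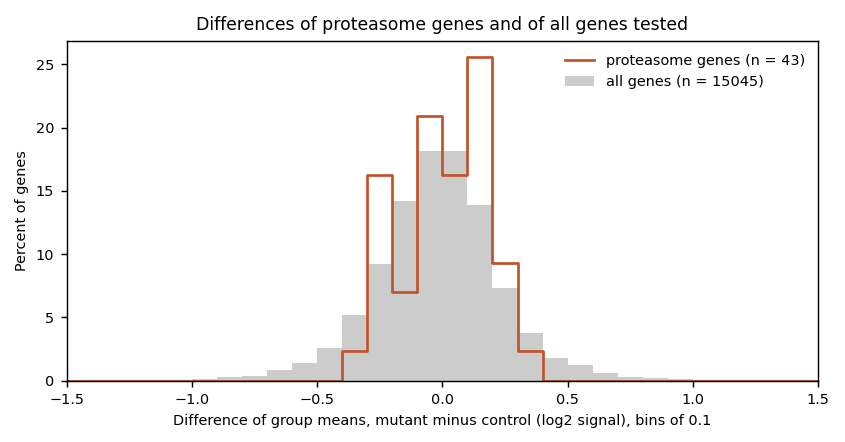
Share of genes, in percent, by the difference of group means in log2 signal (mutant minus control, bins of 0.1), for all 15045 genes (grey bars) and for the 43 proteasome genes (line). All proteasome genes sit between -0.34 and 0.39, inside the body of the distribution of all genes.

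**Figure D2:**
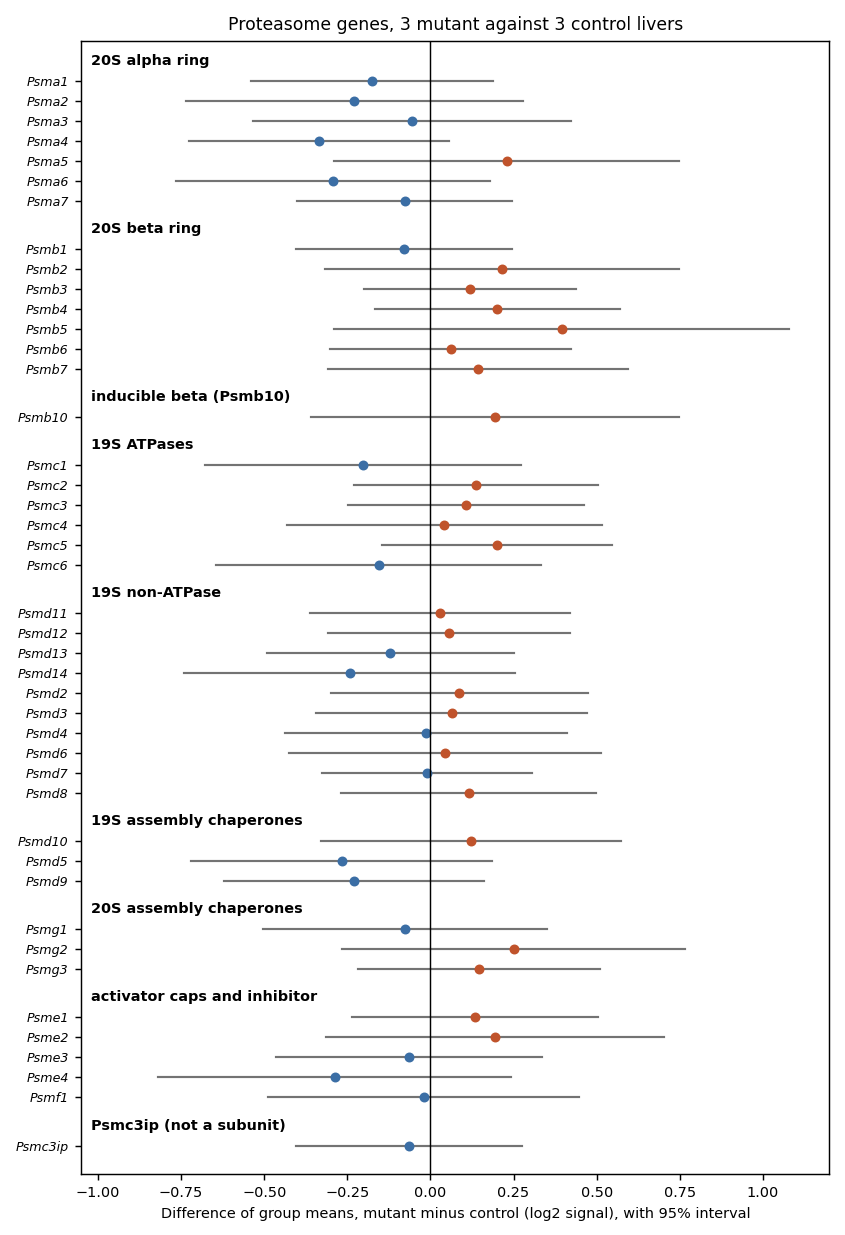
Difference of group means (log2 signal, mutant minus control) of each of the 43 measured genes, with its 95% interval from limma, ordered by role; red points are above 0 and blue points below. Every interval crosses 0, and that of Psmb5 alone extends past 1.

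The 7 alpha subunits, which form the gated outer rings, had lower means in mutants in 6 cases. The median difference was -0.17, and none passed. Psma4 had the smallest unadjusted p of all members (0.0836 in limma). It read 10.01, 10.2 and 10.1 in the controls and 9.502, 9.88 and 9.96 in the mutants, so every mutant lay below every control. The difference was -0.34 (SE 0.17; limma adjusted p = 0.943). Without mutant replicate 1 it was -0.20. The 8 probe sets of Psma4 were all lower in mutants, by 0.13 to 0.61 in log2 signal. Probe sets of a gene share the same arrays, here and below, and are not separate comparisons. Psma6 was even across the controls, at 10.24, 10.18 and 10.19, and in mutant replicates 2 and 3, at 10.1 and 10.2. Mutant replicate 1 read 9.46, and this array carried most of the difference of -0.29 (SE 0.21), which was -0.071 without it. Much of the low reading came from 1 of its 8 probe sets, 5607244; over the other 7, chosen after seeing the data, the difference was -0.15 (SE 0.15) and the groups overlapped. Psma1 read 10.6, 10.5 and 10.4 in controls and 10.1, 10.4 and 10.4 in mutants, with overlapping groups.

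Over the whole alpha ring, mutant replicate 1 lay 0.42 below the control mean, where over all genes it lay at -0.091. It was the lowest array for 5 of the 7 subunits, and for 32.8% of all genes. Mutant replicates 2 and 3 lay 0.01 and 0.02 above the control mean of the ring. Their medians over the ring were -0.097 and -0.044, and on each of them 2 of the 7 subunits lay above their control mean. Without mutant replicate 1 the alpha subunits split into 3 higher and 4 lower, with a median of -0.071. That array is also the one with the highest acute phase and neutrophil means. It was highest too for the Kupffer cell and macrophage (0.56), cholangiocyte (0.52) and unfolded protein response (0.97) lists, from the control mean. The cell type lists were uneven there. Among cholangiocyte markers Spp1 read 10.09 against a control mean of 7.62, while Epcam and Cftr lay below their control means. Adgre1, Vsig4 and Csf1r of the macrophage list were not above theirs. Mutant replicate 1 was lowest for the stellate and fibroblast (-0.74), clock output (-0.73) and NRF2 target (-0.41) lists. Its hepatocyte mean (-0.058) lay between those of the other mutants. The part of any of these lists in the alpha subunit values was not tested. The one alpha subunit with a higher mean was Psma5, at 0.23 (SE 0.23). It read 9.42, 9.51 and 8.96 in controls and 9.13, 9.69 and 9.76 in mutants, with control replicate 3 the lowest array. Its value rests on 4 probe sets. The platform lists 14 more under both Psma5 and a predicted gene, and with these included the difference was 0.012, a choice made after seeing the data.

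The 7 constitutive beta subunits showed the opposite balance, with 6 higher and 1 lower in mutants. Their median difference was 0.14, and none passed either. Over the ring the controls lay at 0.22, -0.004 and -0.21 from the control mean and the mutants at 0.15, 0.20 and 0.11. Control replicate 3 was the lowest array for 5 of the 7 subunits, and for 15.6% of all genes. Without it 4 were higher and 3 lower, with a median of 0.039. Psmb5 carries the chymotrypsin-like activity and is the main target of proteasome inhibitors used as drugs. It read 9.32, 8.36 and 8.10 in the controls and 9.01, 9.12 and 8.83 in the mutants. The difference was 0.39 (SE 0.30; limma adjusted p = 0.943), and all 8 probe sets of Psmb5 had a higher mean in mutants. The order of the arrays rested on 1 erratic probe set, 5037994, which read 8.04, 2.39 and 2.82 in controls and 5.04, 7.16 and 2.29 in mutants. Over the other 7 probe sets, a choice made after seeing the data, Psmb5 read 9.51, 9.21 and 8.85 in controls and 9.58, 9.41 and 9.77 in mutants. Mutant replicate 3 was then the highest array, control replicate 1 lay among the mutants, and the difference was again 0.39, with a smaller error (SE 0.20; limma adjusted p = 0.943). Without control replicate 1 the difference over all 8 probe sets was 0.76 (SE 0.19; unadjusted p = 0.00459 and adjusted p = 0.589 in limma), and over those 7 it was 0.55 (SE 0.20; unadjusted p = 0.0294 and adjusted p = 0.758 in limma). Without control replicate 3 it was 0.15 over all 8.

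The other catalytic subunits differed less. Psmb6, with the caspase-like site, read 10.18, 10.37 and 10.06 in controls and 10.40, 10.12 and 10.28 in mutants, a difference of 0.060 (SE 0.16) whose sign turned when control replicate 3 or mutant replicate 1 was left out. Psmb7, with the trypsin-like site, read 11.01, 10.7 and 10.4 against 10.6, 11.02 and 10.9, a difference of 0.14 (SE 0.20). In both genes the groups overlapped widely. Psmb4, a non-catalytic subunit, read 9.93, 9.91 and 9.61 in controls and 10.02, 9.89 and 10.2 in mutants, with overlapping groups and a difference of 0.20 (SE 0.16). Psmb3, also non-catalytic, was the one beta subunit whose mutants (9.93, 9.97 and 9.94) all lay above the controls (9.73, 9.92 and 9.83), by a margin of less than 0.01 between the nearest arrays; its difference was 0.12 (SE 0.14).

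Psmb2, another non-catalytic beta subunit, read 9.77, 9.18 and 8.95 in controls and 9.59, 9.67 and 9.28 in mutants. Its highest arrays were control replicate 1 and mutant replicates 1 and 2, also without its most variable probe set, and its difference was 0.22 (SE 0.23). Pomp, the chaperone that brings beta subunits into the assembling core, was highest on these arrays too, at 11.3, 10.8 and 10.7 in controls and 11.6, 11.5 and 11.001 in mutants. The clock output factor Dbp was lowest on the same 3 arrays, at 7.29, 8.93 and 8.71 in controls and 6.90, 6.91 and 8.74 in mutants. Over the clock output list of 12 genes, the controls lay at -0.32, 0.15 and 0.17 from the control mean and the mutants at -0.73, -0.48 and 0.065. In that list 2 genes had higher and 10 lower means in mutants, and not all followed Dbp. Arntl and Npas2 were highest in mutant replicate 2 (8.44 and 6.43), where Dbp was low. Psmb2, Pomp and Dbp were set side by side after their values were seen. Psmc2 and Psme2 were also highest on control replicate 1 and mutant replicates 1 and 2. Other members went the other way and were lowest on those 3 arrays, as Dbp was. They were Psma2, Psmc4, Psmc6, Psmd3, Psmd4, Psmd9 and Psmc3ip. Psmb5, over its 7 steady probe sets, was highest in mutant replicate 3, where Dbp was high. Whether the circadian phase at sampling has a part in the Psmb2 values was not tested.

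**Figure D3:**
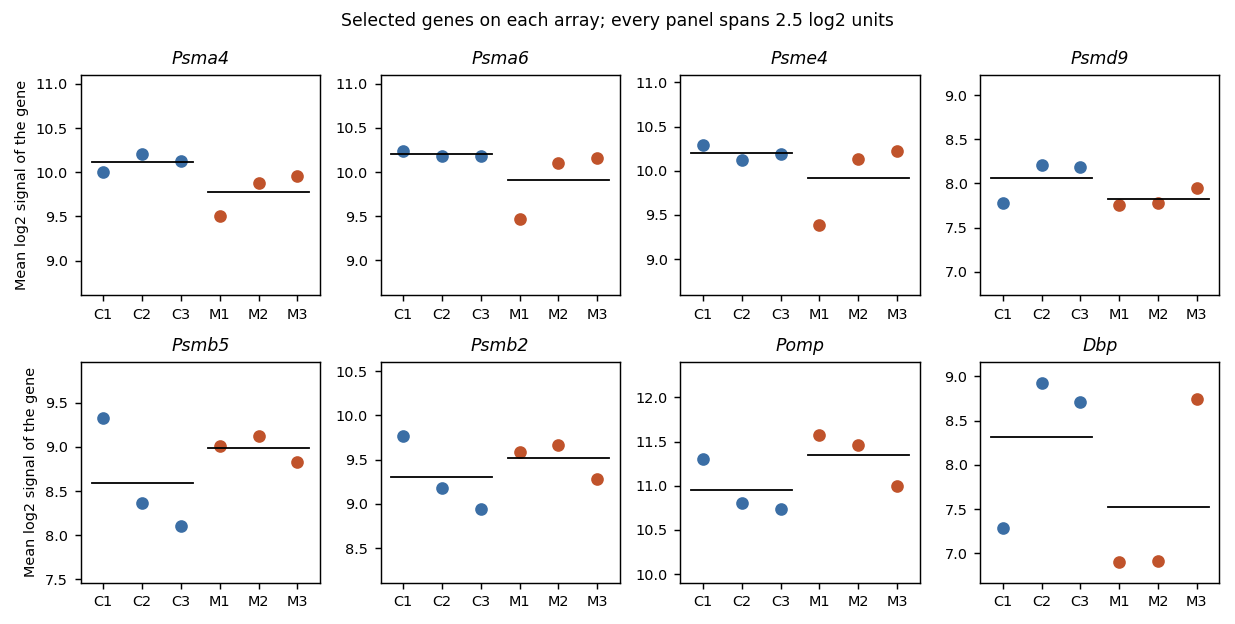
Mean log2 signal of 8 genes on each array, with controls (C1 to C3) in blue, mutants (M1 to M3) in red and group means as lines; each panel spans 2.5 log2 units. Psma6 and Psme4 are low on M1 alone (9.46 and 9.39), while Psmb2 and Pomp are highest on C1, M1 and M2, the arrays where Dbp is lowest; the Psmb5 panel includes the erratic probe set 5037994.

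The promoters of Psma4 and Psmb5, the members with the lowest and the highest difference, are printed with that of Psmb6 as a second catalytic subunit. They show the 250 bases before the annotated start, from RefSeq on build GRCm38.p6, 5′ to 3′ on the gene's strand. The motifs searched, on both strands, were TGACNNNGC, the core of the antioxidant response element through which NRF1 and NRF2 act, the CCAAT box, and the E-box CACGTG bound by clock factors. Capitals mark the match in each.
Psma4, chr9:54950609-54950858, plus strand: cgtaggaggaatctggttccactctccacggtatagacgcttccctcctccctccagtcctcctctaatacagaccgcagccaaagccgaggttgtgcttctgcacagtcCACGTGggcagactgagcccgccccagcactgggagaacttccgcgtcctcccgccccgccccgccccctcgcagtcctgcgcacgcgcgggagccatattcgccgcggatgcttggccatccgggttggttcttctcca
Psmb5, chr14:54617996-54618245, minus strand: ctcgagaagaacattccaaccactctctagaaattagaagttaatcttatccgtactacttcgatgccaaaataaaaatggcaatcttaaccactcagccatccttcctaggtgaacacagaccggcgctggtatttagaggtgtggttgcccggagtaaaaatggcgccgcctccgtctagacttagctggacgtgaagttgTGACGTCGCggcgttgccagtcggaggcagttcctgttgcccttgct
Psmb6, chr11:70525107-70525356, plus strand: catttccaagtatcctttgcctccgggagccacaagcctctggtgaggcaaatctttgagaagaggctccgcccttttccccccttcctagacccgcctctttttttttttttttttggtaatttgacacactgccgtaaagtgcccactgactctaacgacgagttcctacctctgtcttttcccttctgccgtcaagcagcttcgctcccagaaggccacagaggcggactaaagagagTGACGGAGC

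Counted from the start, the antioxidant element core began at position -47 in Psmb5 and -9 in Psmb6. Psma4 held an E-box at position -140 and no antioxidant element core in these letters. Promoters with a single annotated start of 300 bases (250 before it and 50 after) were matched for 34 of the 44 genes. The antioxidant element core was found in 6 of these 34 (17.6%), which were Psmb5, Psmb6, Psmc6, Psmd12, Psmd9 and Psme4, and in 12.3% of the 22855 such promoters in the table. CCAAT was found in 12 of 34 (35.3%, against 38.2%) and CACGTG in 4 of 34 (11.8%, against 7.12%). A match is a run of letters and not a measured binding site. The genes holding the antioxidant core did not share a direction: Psmb5, Psmb6 and Psmd12 differed by 0.39, 0.060 and 0.055, and Psmc6, Psmd9 and Psme4 by -0.16, -0.23 and -0.29.

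The inducible beta subunits replace Psmb5, Psmb6 and Psmb7 in the immunoproteasome, a form of the core that cells make under interferon. Psmb10, the counterpart of Psmb7, read 7.58, 8.31 and 7.91 in controls and 8.47, 7.79 and 8.13 in mutants. The groups overlapped, and the difference was 0.19 (SE 0.24; limma adjusted p = 0.947). With 1 array left out it ran from 0.018 (without control replicate 1) and 0.027 (without mutant replicate 1) to 0.38 (without control replicate 2) and 0.40 (without mutant replicate 2), and without its most variable probe set it was 0.36. Psmb8 and Psmb9, which were not among the members, differed by 0.37 (SE 0.25) and 0.15 (SE 0.19). Psmb9, the counterpart of Psmb6, read 7.61, 8.27 and 7.89 in controls and 8.17, 8.00 and 8.05 in mutants, and its mutants all lay within the range of the controls. All 3 inducible genes were lowest in control replicate 1, at 7.58, 5.91 and 7.61. Under array weights the difference of Psmb10 was -0.038 and so of the other sign.

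The 6 ATPases of the 19S base, which unfold substrates, had 4 higher and 2 lower means in mutants, with a median difference of 0.075. Psmc5 read 9.09, 9.13 and 8.85 in controls and 9.13, 9.31 and 9.22 in mutants, so that the lowest mutant lay just above the highest control. The difference was 0.20 (SE 0.15; limma adjusted p = 0.943). Psmc1 read 9.67, 9.73 and 9.54 against 9.18, 9.88 and 9.28, with mutant replicate 2 above every control and the other mutants below them. Its difference of -0.20 (SE 0.21) became -0.42 without mutant replicate 2 (unadjusted p = 0.0393, adjusted p = 0.835 in limma). Psmc2 read 9.76, 9.58 and 9.47 in controls and 9.86, 9.80 and 9.56 in mutants, overlapping, with a difference of 0.14 (SE 0.16). The 13 probe sets of Psmc3 were all higher in mutants, by at most 0.24, and the gene's difference was 0.11 (SE 0.15).

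The 10 measured non-ATPase subunits of the 19S cap had 6 higher and 4 lower means, with a median difference of 0.036, and in all 10 the groups overlapped. The differences ran from -0.24 to 0.11. Psmd14, the deubiquitinase that removes ubiquitin chains before degradation, had the smallest p of them. It read 8.67, 8.70 and 8.28 in controls and 8.09, 8.71 and 8.11 in mutants, a difference of -0.24 (SE 0.22; limma adjusted p = 0.943). Psmd13, a lid subunit, read 8.21, 8.31 and 8.18 in controls and 7.90, 8.11 and 8.34 in mutants, a difference of -0.12 (SE 0.16). Psmd8, also of the lid, read 10.04, 9.61 and 9.62 in controls and 9.83, 9.89 and 9.89 in mutants, a difference of 0.11 (SE 0.17). Its controls spanned more than its mutants and enclosed them. The ubiquitin receptor Psmd4 differed by -0.012 (SE 0.18), and the large scaffold subunit Psmd2 by 0.087 (SE 0.17). Mutant replicate 1 was the lowest array for 7 of the 10, and for 32.8% of all genes. Mutant replicate 3 was the highest for 6, and for 3742 of all 15045 genes.

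Chaperones that assemble the 19S base were lower in mutants in 2 of 3 cases. Psmd5 read 8.74, 8.48 and 8.56 in controls and 7.95, 8.56 and 8.48 in mutants, so mutant replicate 1 stood well below the controls while the other mutants lay at their lower edge or among them. Its difference was -0.27 (SE 0.20), and -0.076 without mutant replicate 1. Psmd9 read 7.78, 8.21 and 8.19 in controls and 7.76, 7.78 and 7.95 in mutants, a difference of -0.23 (SE 0.17). Control replicate 1 lay among the mutants. Psmd10 (gankyrin) differed by 0.12 (SE 0.20). Of the core's assembly chaperones, Psmg1 differed by -0.076 (SE 0.19). Psmg2 read 7.78, 7.68 and 7.50 in controls and 7.43, 8.02 and 8.26 in mutants, with both the lowest and the highest arrays among the mutants, and differed by 0.25 (SE 0.22). Psmg3 read 6.35, 6.22 and 6.35 in controls and 6.68, 6.35 and 6.33 in mutants, where mutant replicate 1 alone stood clear of the controls, and differed by 0.15 (SE 0.16).

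Among the alternative caps and the inhibitor, Psme4 (PA200), a large activator that acts without ubiquitin, had the smallest p. It read 10.3, 10.1 and 10.2 in controls and 9.39, 10.1 and 10.2 in mutants. The difference was -0.29 (SE 0.23; limma adjusted p = 0.943), and all 48 of its probe sets had a lower mean in mutants. Mutant replicate 1 alone was low, and without it the difference was -0.024. The probe sets of Psme4 come from the same arrays and are not separate comparisons. The interferon-inducible activator subunits Psme1 and Psme2 differed by 0.13 (SE 0.16) and 0.19 (SE 0.22). Psme2 read 8.55, 8.48 and 7.88 in controls and 8.58, 8.68 and 8.23 in mutants, with control replicate 3 the lowest array. It rests on 2 probe sets, and with those listed under both Psme2 and its pseudogene Psme2b-ps its difference was 0.037. The nuclear activator Psme3 differed by -0.066 (SE 0.17) and the inhibitor Psmf1 by -0.021 (SE 0.20).

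**Figure D4:**
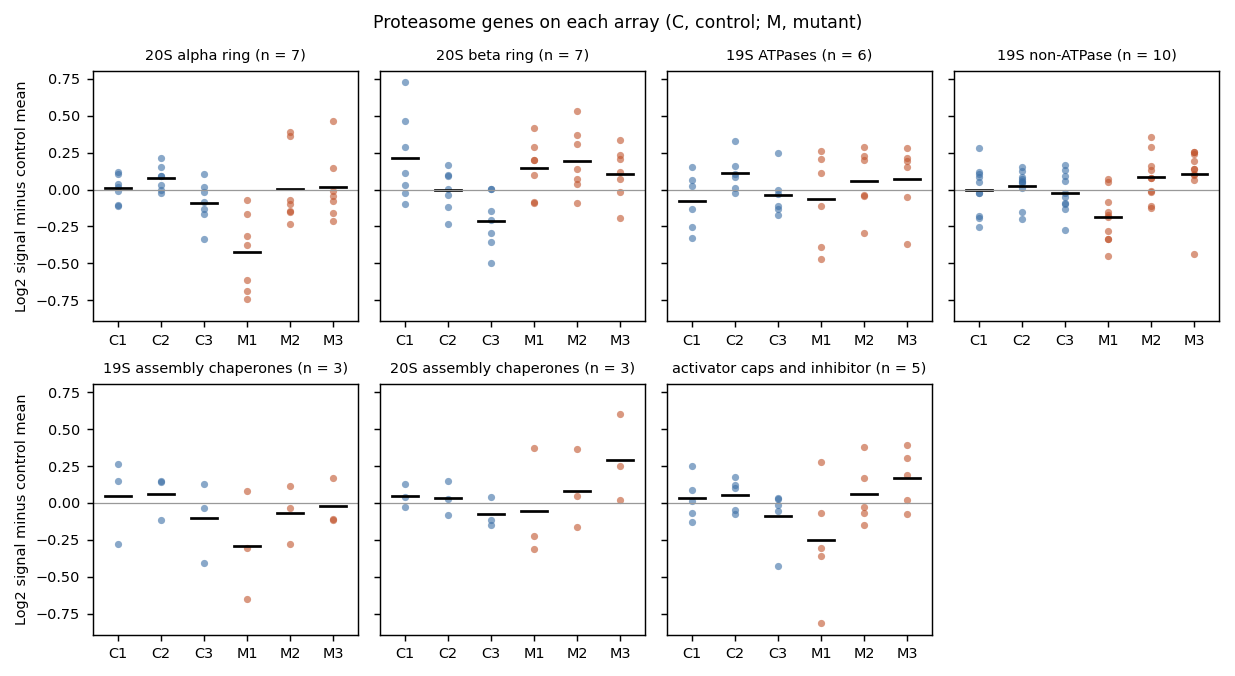
Log2 signal of each gene minus its control mean on each array (C1 to C3 controls, M1 to M3 mutants), by role; points are genes and black lines are role means, with Psmb10 and Psmc3ip left out as single genes. Mutant replicate 1 is low in the alpha ring (mean -0.42), the 19S assembly chaperones (-0.29), the activator caps and inhibitor (-0.25) and the non-ATPase subunits (-0.19). It is not low in the beta ring (0.15).

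Across all 43 members, mutant replicate 1 lay 0.14 below the control mean and mutant replicates 2 and 3 lay 0.063 and 0.098 above it. Over all 15045 genes these arrays lay at -0.091, -0.039 and 0.078, so mutant replicates 1 and 3 were shifted the same way there. Mutant replicate 1 was the lowest of the 6 arrays for 21 members (48.8%), and for 32.8% of all genes. The controls ranged from -0.082 to 0.059 over the members, and from -0.019 to 0.020 over all genes. Without mutant replicate 1, 29 of 43 members (67.4%) were higher in mutants, against 54.5% of all genes, with a median of 0.076. Psmg2 was then the one member at an unadjusted p under 0.05 (0.49, SE 0.17, unadjusted p = 0.0203, adjusted p = 0.9998 in limma). In 4 of the 43 members (9.3%) the groups did not overlap, against 9.47% of all genes. They were Psma4 and Psma6 lower (background 4.32% for that direction) and Psmb3 and Psmc5 higher (background 5.15%). Without each gene's most variable probe set, Psma6 and Psmc5 overlapped too. The residual SD of a member within groups had a median of 0.21, and that of all genes 0.23.

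At the level of single probe sets, which measure parts of exons, 0 of 457 passed in limma over 191663 probe sets (background 0%). An unadjusted p under 0.05 was reached by 2 of them (0.438%, against 4.07% of all). A mean higher in mutants was found in 226 (49.5%, against 46.8%). The groups did not overlap in 25 (5.47%, against 8.45%), of which 13 were higher and 12 lower in mutants. A difference over 1 log2 unit was seen in 3 member probe sets (0.656%, against 3.24% of all), in Psmg2, Psma6 and Psmc4.

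Psmg2 held the member probe set of smallest p. Probe set 5100802 read 4.96, 4.55 and 5.05 in controls and 6.11, 6.21 and 7.01 in mutants, with every mutant above every control by more than 1 log2 unit. Its difference was 1.59 (SE 0.32; unadjusted p = 0.00107, limma adjusted p = 0.991 over all probe sets). The other 8 kept probe sets of Psmg2 differed by -0.17 to 0.40, with a mean of 0.083. Psmg2 encodes the partner of Psmg1 in a chaperone pair that starts the assembly of the alpha ring. The position of this probe set within the gene was not analysed here.

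**Figure D5:**
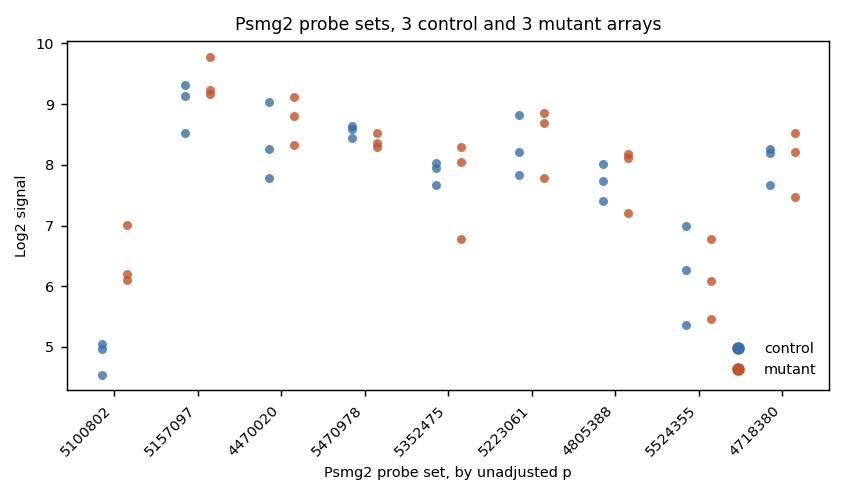
Log2 signal of the 9 kept Psmg2 probe sets, ordered by unadjusted p, on 3 control (blue) and 3 mutant (red) arrays. Probe set 5100802 is dim in controls (4.55 to 5.05) and reads 6.11 to 7.01 in mutants, while the groups overlap in the other 8.

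The other large differences were set by mutant replicate 1. Probe set 5607244 of Psma6 read 7.81, 7.86 and 8.41 in controls and 4.41, 7.49 and 8.23 in mutants, a difference of -1.31 (SE 0.86). Probe set 5299391 of Psmc4 read 4.07, 5.71 and 5.91 in controls and 1.14, 5.15 and 5.36 in mutants, a difference of -1.35 (SE 1.07). In both, the other mutants lay within or near the controls. The second probe set at an unadjusted p under 0.05 was 5259179 of Psmc3ip, which differed by -0.89 (SE 0.34; unadjusted p = 0.0306). The next member probe sets in either direction did not reach it: 4450044 of Psmb5 (0.65, SE 0.32), 4373487 of Psmb10 (0.54, SE 0.28), 5267178 of Psma4 (-0.61, SE 0.31) and 5218698 of Psme4 (-0.60, SE 0.33).

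Whether single probe sets departed from the rest of their gene was tested as exon usage, with limma's diffSplice F-test, in the 42 members with at least 3 kept probe sets. Of these, 0 passed (background 0.21% of 14310 genes) and 0 reached an unadjusted p under 0.05, against 4% of all genes. Psmg2 had the smallest unadjusted p, 0.0858, followed by Psmb10 with 0.236 and Psmc3ip with 0.306, each with an adjusted p = 1. Psme4, with 48 probe sets from -0.83 to -0.033, and Psmd2, with 24 from -0.64 to 0.42, had unadjusted p-values of 1 and 0.980.

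Other proteins of the ubiquitin pathway were taken from lists of their own. Of 10 measured genes whose products bind or assemble proteasomes, 4 were higher and 6 lower in mutants, with a median of -0.030, and 0 passed in limma or reached an unadjusted p under 0.05. The deubiquitinase Usp14, which trims chains on the 19S cap, differed by -0.45 (SE 0.25), with mutant replicate 1 at 7.59 and the other mutants at 8.59 and 8.31 against 8.59 to 8.64 in controls. Usp14 passed for exon usage (adjusted p = 0.0143), as did Maff, described next (0.0477), in a test that also called unchanged genes in simulated data. Pomp differed by 0.40 (SE 0.22) and the ubiquitin receptor Adrm1 by 0.25 (SE 0.17). Of 11 measured genes for ubiquitin activation and substrate delivery, 7 were higher and 4 lower (median 0.019), and 0 passed or reached an unadjusted p under 0.05. Zfand5, a proteasome-binding zinc finger protein, differed by -0.38 (SE 0.26), the p97 cofactor Nsfl1c by 0.20 (SE 0.17) and the shuttle factor Ubqln1 by -0.14 (SE 0.16).

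Of 13 measured genes that control proteasome transcription, 4 were higher and 9 lower, with a median of -0.088, and none passed. Maff, a small MAF partner of NRF1 and NRF2, had the smallest p. It read 6.33, 6.70 and 6.51 in controls and 5.93, 6.09 and 6.16 in mutants, below every control, a difference of -0.45 (SE 0.16; unadjusted p = 0.0215, limma adjusted p = 0.943). Nfyc, a subunit of the factor that binds CCAAT, differed by -0.32 (SE 0.17) and Mafg by -0.28 (SE 0.17). NRF1 (Nfe2l1) differed by 0.18 (SE 0.18) and NRF2 (Nfe2l2) by -0.30 (SE 0.19). The NRF2 target list had 5 of 10 members higher and 5 lower, with none at an unadjusted p under 0.05.

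The list for the immunoproteasome and antigen processing had 9 of 10 measured genes higher in mutants, with a median of 0.17, and 0 passed. It includes Psmb10, Psme1 and Psme2 from above. The gene that was lower was Irf1, an interferon-induced transcription factor that drives the inducible subunits. It read 7.81, 7.84 and 7.54 in controls and 7.05, 6.71 and 7.03 in mutants, with no overlap, a difference of -0.80 (SE 0.17; unadjusted p = 0.00125, limma adjusted p = 0.896). Psmb8 read 5.91, 6.86 and 6.34 against 6.95, 6.49 and 6.78. Tapbp, a peptide-loading chaperone, differed by 0.29 (SE 0.26). Over the list, control replicate 1 lay 0.22 below the control mean and control replicate 2 lay 0.29 above it, a spread that covers all mutants (-0.092 to 0.20). Lymphocyte markers, which can add inducible subunits to a liver sample, averaged 5.48 to 5.62 in controls and 5.23 to 5.44 in mutants over 10 genes, and their part in these values was not tested.

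Among stress lists, the 15 genes of the unfolded protein response stood at 0.97, 0.54 and 0.45 from the control mean in mutant replicates 1 to 3, with 9 at an unadjusted p under 0.05 (4.21% of all genes) and 0 past the adjusted threshold. The proteasome members on those arrays stood at -0.14, 0.063 and 0.098, and all genes tested at -0.091, -0.039 and 0.078. The difference between these lists was not tested.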

How the data were processed

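The members and lists were chosen with earlier results of these data known. The authors deposited 1 table of log2 signals for 204531 probe sets on 6 arrays; per the submitters' processing notes, which give no roles, the tools and build were Affymetrix Expression Console 1.1, RMA, Partek 6.4 and mm9. As usually run, RMA normalizes arrays to each other and compresses differences of dim probe sets. Symbols came from the platform annotation; of 16139, 2104 were updated through RefSeq synonyms and 40 were not matched.

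A probe set was kept where a group mean was 3 or more (191663). Genes with at least 2 kept single-symbol probe sets (15045) and single probe sets were compared with limma 3.58.1 in R 4.3.3 (lmFit, eBayes), mutant minus control, Benjamini-Hochberg adjusted over all tested. Exon usage was tested with diffSplice, which shares 1 variance among the probe sets of a gene. The steps were tested on simulated data, where diffSplice also called genes that had not been changed.

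Named with values were the members of smallest p in each role, the catalytic and inducible subunits, the 3 member probe sets of smallest p in each direction and the 3 members of smallest p for exon usage; others were named after their values were seen. The number of arrays limits the precision. Alternatives were other signal minimums, quantile normalization, median centring, array weights, a trend, a replicate block, medians over probe sets, the Simes test, leaving out each array and, chosen after seeing the data, leaving out each gene's probe set of largest SD within groups.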

Additional observations from a re-analysis of the deposited data

How the results depend on the processing

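No proteasome gene or probe set passed the adjusted threshold under any alternative run for it, and no member passed for exon usage. With 1 array left out, the members at an unadjusted p under 0.05 numbered 0 to 1 (Psmb5 without control replicate 1, Psmg2 without mutant replicate 1, Psmc1 without mutant replicate 2). The probe sets at that level numbered 1 to 9, and the members with a higher mean in mutants 20 to 29. The median difference ran from -0.047 (without control replicate 1) to 0.0755 (without mutant replicate 1) and was -0.0315 without mutant replicate 3, so its sign changed between alternatives; it was -0.0099 with array weights and 0.0871 with median centring. Without the most variable probe set of each gene, an alternative chosen after seeing the data and possible for 42 members, 24 were higher and 18 lower, and 0 reached an unadjusted p under 0.05. Psmd4 (from -0.0123 to 0.0225) and Psmd7 (from -0.0105 to 0.0043) turned sign there, and no other named gene did. Of 376 recomputed differences of 25 single genes, which do not include Psmd4 and Psmd7, 11 turned sign. These were Psmb10 (-0.0376) and Psmb6 (-0.0106) with array weights; Psmc2 (-0.0243), Psmd14 (0.0102) and Psmg2 (-0.0287) with medians over probe sets; Psme2 (-0.0179), Psmb6 (-0.0119) and Psmb7 (-0.0048) without control replicate 3; Psmc3ip (0.0077) without control replicate 2; Psmb6 (-0.008) without mutant replicate 1; and Psmb9 (-0.0055) without control replicate 1. With 1 array left out, Psme2 reached 0.3282, Psmb6 0.1438, Psmb7 0.2892 and Psmb9 0.3213 at most, and Psmc3ip -0.1379 at least. The cause was not tested.

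The labels number the arrays within each group. Same-numbered arrays correlated at 0.0981, -0.1079 and 0.1758 in their deviations from the group means over all genes. Arrays of different number correlated at -0.2958 to 0.2127. With 3 arrays per group these values cannot decide whether the numbers pair the samples, and the labels do not say. With the replicate block 0 members were called, 0 reached an unadjusted p under 0.05, and 3 probe sets did.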
